A study of Rattus norvegicus with 12 samples.

Results

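The microRNAs of rat serum were compared between animals given dextromethorphan alone and animals given vehicle. Every mature microRNA with a value above 0 in at least 3 of the 12 libraries of the series was described, which gave 479 of the 752 mature names in the table. Of these, 366 reached a mean of 80 FPKM and were tested, and they held 99.99% of all FPKM. The dextromethorphan group (3 libraries, DEX1, DEX2 and DEX3) had swallowed a single dose of 200 mg/kg dextromethorphan hydrobromide monohydrate, and blood was drawn under anaesthesia 1 h later. A group given 180 mg/kg caffeine and then, 1 h later, the same dose of dextromethorphan (3 libraries) and a group given that dose of caffeine alone (3 libraries) entered the estimate of the spread. The control group (3 libraries, ctrl1, ctrl3 and ctrl5) had swallowed the vehicle, sterile distilled water. All groups were male Sprague-Dawley rats of the Jcl:SD stock, 7 weeks old, and each RNA sample came from 200 uL of serum. The design names 5 rats per group, and 3 libraries per group were analysed here. The comparison asks which circulating microRNAs differ shortly after the single drug.

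Dextromethorphan is a cough suppressant that acts in the brain, where it blocks NMDA-type glutamate receptors, and it is metabolised in the liver. MicroRNAs are short RNAs held by Argonaute proteins that pair through their seed, bases 2 to 8, with messenger RNAs and lower their output. Serum holds microRNAs released by blood cells, vessel walls and organs, in vesicles or bound to protein, and several of them are made mainly in 1 tissue. In bulk serum, more RNA released per cell, more cells of a type releasing RNA and slower clearance cannot be told apart.

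The mature sequences below are those on which the results turn: the liver, gut and kidney microRNAs, the miR-200 family, the endocrine miR-375-3p, the red-cell miR-451-5p, and 3 abundant microRNAs, of which miR-140-3p rose, miR-339-5p fell and miR-191a-5p did not pass. They were taken from RefSeq for assembly GRCr8, are written 5′ to 3′, and have the seed in capitals.
miR-194-5p: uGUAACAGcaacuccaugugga
miR-192-5p: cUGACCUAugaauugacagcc
miR-192-3p: cUGCCAGUuccauaggucacag
miR-122-5p: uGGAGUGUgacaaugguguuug
miR-200b-5p: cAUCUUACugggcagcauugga
miR-200a-5p: cAUCUUACcggacagugcugg
miR-141-3p: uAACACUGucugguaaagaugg
miR-200c-3p: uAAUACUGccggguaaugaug
miR-375-3p: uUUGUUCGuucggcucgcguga
miR-451-5p: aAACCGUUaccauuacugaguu
miR-140-3p: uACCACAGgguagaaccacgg
miR-339-5p: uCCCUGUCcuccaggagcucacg
miR-191a-5p: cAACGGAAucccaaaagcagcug
The pair miR-200a-5p and miR-200b-5p shared the seed AUCUUAC. The seeds of miR-141-3p and miR-200c-3p differed, although both belong to the miR-200 family and lie in the same cluster. Sequences were matched for 338 of the 366 tested microRNAs and for 38 of the 44 that passed the test described below. Those of miR-200a-3p, miR-200b-3p, miR-378b, miR-383-5p, miR-429 and miR-802-5p are not shown.

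The dextromethorphan libraries were shallower than the controls. Reads assigned to microRNAs, recovered from the FPKM, numbered 895792, 443564 and 403913 in the dextromethorphan libraries, against 2.10e+06, 2.63e+06 and 1.30e+06 in controls. The groups did not overlap, and the exact permutation p was 0.1, the smallest that 3 against 3 libraries can give. For a microRNA of 22 nucleotides, each read counted for 50.7 to 113 FPKM in the dextromethorphan libraries and 17.3 to 34.8 FPKM in controls. The log2 ratio of miR-451-5p, made in red-cell precursors, to miR-23a-3p, a ratio used to follow haemolysis, was -6.47, -5.13 and -5.26 after dextromethorphan, against -7.73, -7.11 and -7.83 in controls (exact permutation p = 0.1). On the first principal component of log2 FPKM, with 30.2% of the variance, ctrl1, ctrl3 and ctrl5 had -13.9, -13.7 and -7.24. DEX1, DEX2 and DEX3 had 2.75, 6.36 and 6.68, near the 1.95, 2.14 and 5.33 of CAF3, CAF4 and CAF5. CAFDEX2, CAFDEX3 and CAFDEX6 had 2.50, 10.4 and -3.30. DEX2 and DEX3 stood apart from all other libraries on the second principal component, with scores of 12.7 and 10.7 where no other library exceeded 1.58, and it held 18.5% of the variance. The part of depth and of red-cell RNA in the differences below was not tested, but refits on libraries thinned to equal depth and with this ratio as a covariate are given further on.

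After dextromethorphan, 42 of 366 tested microRNAs were higher than in controls, which is 11.5%, and 2 were lower, which is 0.546% (limma on log2(FPKM + 40), 3 libraries a group, adjusted p under 0.05). The rises were led by miR-192, miR-194 and miR-802, which are characteristic of liver, intestine and kidney, and by the epithelial miR-200 family. Together the 42 took 17.6% of reads on average in the dextromethorphan libraries and 6.63% in controls. Single libraries had 21.35%, 15.91% and 15.57% in DEX1, DEX2 and DEX3. The same 42 took 16.25%, 11.99% and 18.18% in CAF3, CAF4 and CAF5, after caffeine alone. After both drugs they took 16.18%, 14.09% and 14.01% in CAFDEX2, CAFDEX3 and CAFDEX6. These shares weigh each microRNA by its reads, and the 42 include the abundant miR-122-5p and miR-140-3p. The 11 steadiest of the 42, named below, took 0.898%, 1.91% and 1.28% in DEX1, DEX2 and DEX3. In CAF3, CAF4 and CAF5 those 11, also selected as high in the dextromethorphan libraries, took 0.334%, 0.266% and 0.449%. The fold changes of the 42 against control ran from 1.83 to 12.5, with a median of 3.07. On the log2 scale, 38 of the 42 were higher by more than 1. In 40 of the 42 every dextromethorphan library exceeded every control, whereas miR-139-3p and miR-182 overlapped. Because the 42 were selected on these same values, neither this separation nor their larger share than in controls is further support for them. Without regard to the test, every dextromethorphan library lay above every control in 95 of the 366, or 26%. The reverse held for 26 of the 366, or 7.1%.

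FPKM are shares of the microRNA reads, so the level of 1 abundant microRNA moves all others. The share of miR-191a-5p, the most abundant microRNA, was 20.5%, 27.4% and 20.99% after dextromethorphan, against 33.9%, 39.3% and 35.7% in controls (exact permutation p = 0.1). The median tested microRNA had a log2 fold change of 0.47 as deposited and of 0.11 after median-of-ratios scaling, a shift of 0.36. With that scaling 15 microRNAs were higher (4.1%) and 19 lower (5.19%), and with quantile normalization 13 were higher (3.55%) and 17 lower (4.64%). Of the 42 rises, 12 passed as higher in all 3 scalings, and both falls passed as lower in all 3. All 44 kept their direction in both other scalings. List medians are therefore given beside 0.47 below.

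**Figure D1:**
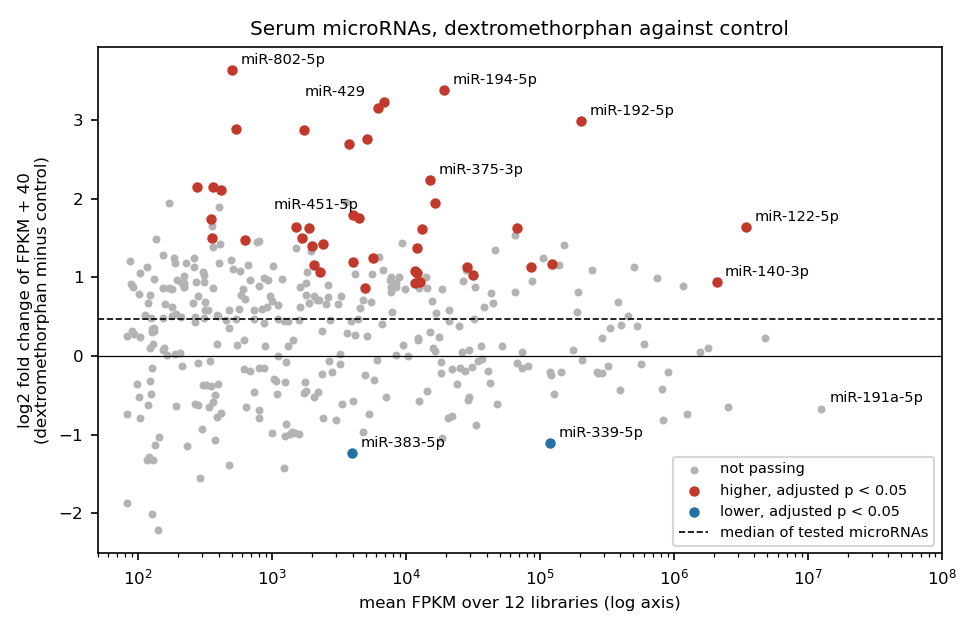
Log2 fold change of each tested microRNA (dextromethorphan minus control, log2 of FPKM + 40) against its mean FPKM over 12 libraries on a log axis. Red points were higher and blue points lower at an adjusted p under 0.05, and the dashed line marks the median of 0.47; the red points span rare microRNAs such as miR-802-5p and abundant ones such as miR-122-5p and miR-140-3p.

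Among microRNAs of liver, intestine and kidney, miR-194-5p and miR-192-5p had the smallest p-values of all 366. They are cut from neighbouring hairpins and are abundant in hepatocytes, enterocytes and kidney tubules. miR-194-5p had 29126, 73578 and 59531 FPKM in DEX1, DEX2 and DEX3, against 4234, 4276 and 6026 FPKM in ctrl1, ctrl3 and ctrl5. That is 10.5-fold higher after dextromethorphan (95% interval 6.25 to 17.5, adjusted p = 1.9e-05). The lowest dextromethorphan library lay well above the highest control, and DEX2 and DEX3 lay above DEX1.

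miR-192-5p had 336051, 694358 and 402118 FPKM after dextromethorphan, against 41518, 58068 and 77329 FPKM in controls, a 7.95-fold difference (4.93 to 12.8, adjusted p = 1.9e-05). These values rested, rounded, on 6322, 6468 and 3411 reads in the dextromethorphan libraries and 1835, 3202 and 2119 reads in controls. Even as recovered reads, with no correction for the shallower libraries, every dextromethorphan library exceeded every control for miR-192-5p. This was true of 9 of the 366 tested microRNAs (2.46%), and all 9 were among the 42: miR-192-5p, miR-192-3p, miR-194-5p, miR-802-5p, miR-141-3p, miR-200a-3p, miR-200b-3p, miR-200b-5p and miR-429. More reads in shallower libraries require a large rise in FPKM, so the place of the 9 among the 42 is no further support for them.

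The opposite arms of the same hairpins rose as well. miR-192-3p had 913, 922 and 1575 FPKM after dextromethorphan, against 86.4, 121 and 139 FPKM in controls (7.40-fold, 3.88 to 14.1, adjusted p = 0.000379). miR-194-3p had 478, 1074 and 1179 FPKM, against 90.5, 218 and 219 FPKM in controls (4.32-fold, adjusted p = 0.0175). Refits that left out 1 library at a time showed which calls hung on single libraries. miR-194-3p was lost without DEX2, DEX3 or ctrl1 (adjusted p up to 0.0914). Both are the rarer product of their hairpin: miR-192-3p rested on 18, 9 and 14 reads after dextromethorphan and 4, 7 and 4 in controls, and miR-194-3p on 9, 10 and 10 and 4, 12 and 6 reads.

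miR-802-5p, expressed in liver, intestine and kidney, had the largest fold change of the 366 at 12.5 (5.67 to 27.3, adjusted p = 0.00035). It had 957, 1610.3 and 1061 FPKM after dextromethorphan, against 67.9, 18.1 and 109 FPKM in controls. The reads behind these were 18, 15 and 9 in the dextromethorphan libraries and 3, 1 and 3 in controls, so the size of the fold is imprecise although the groups were far apart. Its other arm, miR-802-3p, differed by 1.05 ± 0.89 on the log2 scale and did not pass (adjusted p = 0.412).

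miR-122-5p makes up most of the microRNA of hepatocytes and is used as a serum marker of liver injury. It had 6.84e+06, 2.89e+06 and 2.68e+06 FPKM after dextromethorphan, against 983159, 794034 and 2.25e+06 FPKM in controls (3.11-fold, 1.75 to 5.53, adjusted p = 0.0175). DEX1 was the highest here, unlike for miR-192 and miR-194, and DEX2 and DEX3 lay only a little above ctrl5. miR-122-5p was lost without ctrl1 or ctrl3 (adjusted p up to 0.106). It was also lost under both other scalings (adjusted p = 0.0745 with median-of-ratios scaling). Its other arm, miR-122-3p, differed by 0.21 ± 0.93 on the log2 scale (adjusted p = 0.88).

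Of 11 tested names on a list of liver microRNAs, 4 rose (miR-122-5p, miR-192-5p, miR-194-5p and miR-802-5p) and none fell, beside 11.5% higher among all tested. The median log2 fold change was 0.55 against 0.47 for all tested. The list took 9.77% to 17.6% of reads in the dextromethorphan libraries and 4.46% to 7.29% in controls. The other 7 did not pass, with log2 fold changes from -0.42 for miR-148a-3p to 0.67 for miR-365-3p. On a list of gut and kidney epithelium, 5 of 14 tested names rose, again beside 11.5% of all tested. All of them were arms of miR-192, miR-194 or miR-802, and the list median was 1.04. The intestinal miR-31a-5p (0.66 ± 0.34, adjusted p = 0.181) and the kidney-rich miR-30a-5p (0.07 ± 0.32, adjusted p = 0.88) did not pass. The lists overlap in miR-192-5p, miR-194-5p and miR-802-5p.

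The miR-200 family comprises miR-200a, miR-200b, miR-200c, miR-141 and miR-429, which are made in epithelial cells and hold down the repressors ZEB1 and ZEB2. All 8 tested members rose, beside 11.5% higher among all tested. Their median log2 fold change was 2.73 as deposited and 2.33 with median-of-ratios scaling. With that scaling 6 of the 8 passed as higher, beside 4.1% of all tested. In every one the dextromethorphan libraries lay above all controls, as in 40 of the 42 rises and 26% of all tested. Since all 8 had passed on these same values, this separation is no further support for them. Members of a cluster can share a primary transcript, so the 8 are not independent. The family remained rare, at 0.0807% to 0.295% of reads in the dextromethorphan libraries and 0.0266% to 0.0381% in controls. The ninth listed member, miR-200c-5p, was below the mean required for a test.

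Within the cluster on chromosome 5, miR-429 had 8525, 25619 and 19919 FPKM after dextromethorphan, against 1577, 1368 and 2299 FPKM in controls (9.37-fold, 5.28 to 16.7, adjusted p = 5.28e-05). miR-200b-3p had 6747, 24995 and 17976 FPKM, against 1302, 1292 and 2366 FPKM in controls (8.93-fold, 4.76 to 16.7, adjusted p = 0.00016). miR-200a-3p had 5531, 16191 and 17105 FPKM, against 1426, 1212 and 2647 FPKM in controls (6.80-fold, 3.67 to 12.6, adjusted p = 0.000379). In each of the 3, DEX2 and DEX3 lay well above DEX1, DEX1 lay well above every control, and ctrl5 was the highest control. Their 5p arms followed: miR-200b-5p was 7.34-fold higher (adjusted p = 0.000663) and miR-200a-5p 4.44-fold higher (adjusted p = 0.0478). miR-200a-5p was lost without DEX2, DEX3, ctrl1, ctrl3, CAF3, CAF4, CAF5 or CAFDEX2 (adjusted p up to 0.175).

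Within the cluster on chromosome 4, miR-141-3p had 3450.5, 11887 and 11704 FPKM after dextromethorphan, against 1058, 944 and 1602 FPKM in controls (6.51-fold, adjusted p = 0.000561). miR-200c-3p had 9888, 47129 and 56825 FPKM, against 8961, 6765 and 7518 FPKM in controls (3.86-fold, 1.90 to 7.85, adjusted p = 0.0227). For miR-200c-3p DEX1 was barely above ctrl1, the highest control, and DEX2 and DEX3 stood far above both. miR-200c-3p was lost without DEX2, DEX3 or ctrl3 (adjusted p up to 0.116). miR-141-5p, the rarer arm, was 3.33-fold higher (adjusted p = 0.0338). miR-141-5p was lost without DEX2, DEX3, ctrl1 or ctrl3 (adjusted p up to 0.132).

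miR-375-3p, abundant in pancreatic islets, pituitary and gut endocrine cells, had 25117, 34842 and 53004 FPKM after dextromethorphan, against 9159, 9937 and 4772 FPKM in controls. That is 4.72-fold higher (2.78 to 8.02, adjusted p = 0.000561), and the lowest dextromethorphan library stood well clear of the highest control. miR-7a-5p, also rich in endocrine cells, did not pass (0.88 ± 0.45, adjusted p = 0.179), nor did miR-7a-1-3p. Of 3 names on a list of squamous epithelium, the skin microRNAs miR-203a-3p (log2 fold change 1.63 ± 0.51, adjusted p = 0.0478) and miR-203b-3p (1.40 ± 0.44, adjusted p = 0.0478) rose, beside 11.5% higher among all tested. The third, miR-205, had all dextromethorphan libraries above the controls but missed the threshold (1.25 ± 0.48, adjusted p = 0.0876). In the miR-183 cluster, which is expressed in sensory and other epithelia, miR-183-5p (1.61 ± 0.37, adjusted p = 0.0141) and miR-182 (1.37 ± 0.39, adjusted p = 0.0352) rose. miR-203a-3p was lost without DEX2, DEX3, ctrl1, ctrl3, ctrl5, CAF3, CAF4, CAF5 or CAFDEX2 (adjusted p up to 0.2). miR-203b-3p was lost without DEX2, DEX3, ctrl3, ctrl5, CAF3, CAF4, CAF5 or CAFDEX2 (adjusted p up to 0.208). miR-183-5p was lost without DEX3, ctrl1 or ctrl3 (adjusted p up to 0.0757). miR-182 was lost without DEX2, DEX3, ctrl1 or ctrl3 (adjusted p up to 0.128). None of miR-203a-3p, miR-203b-3p and miR-182 passed under either other scaling.

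**Figure D2:**
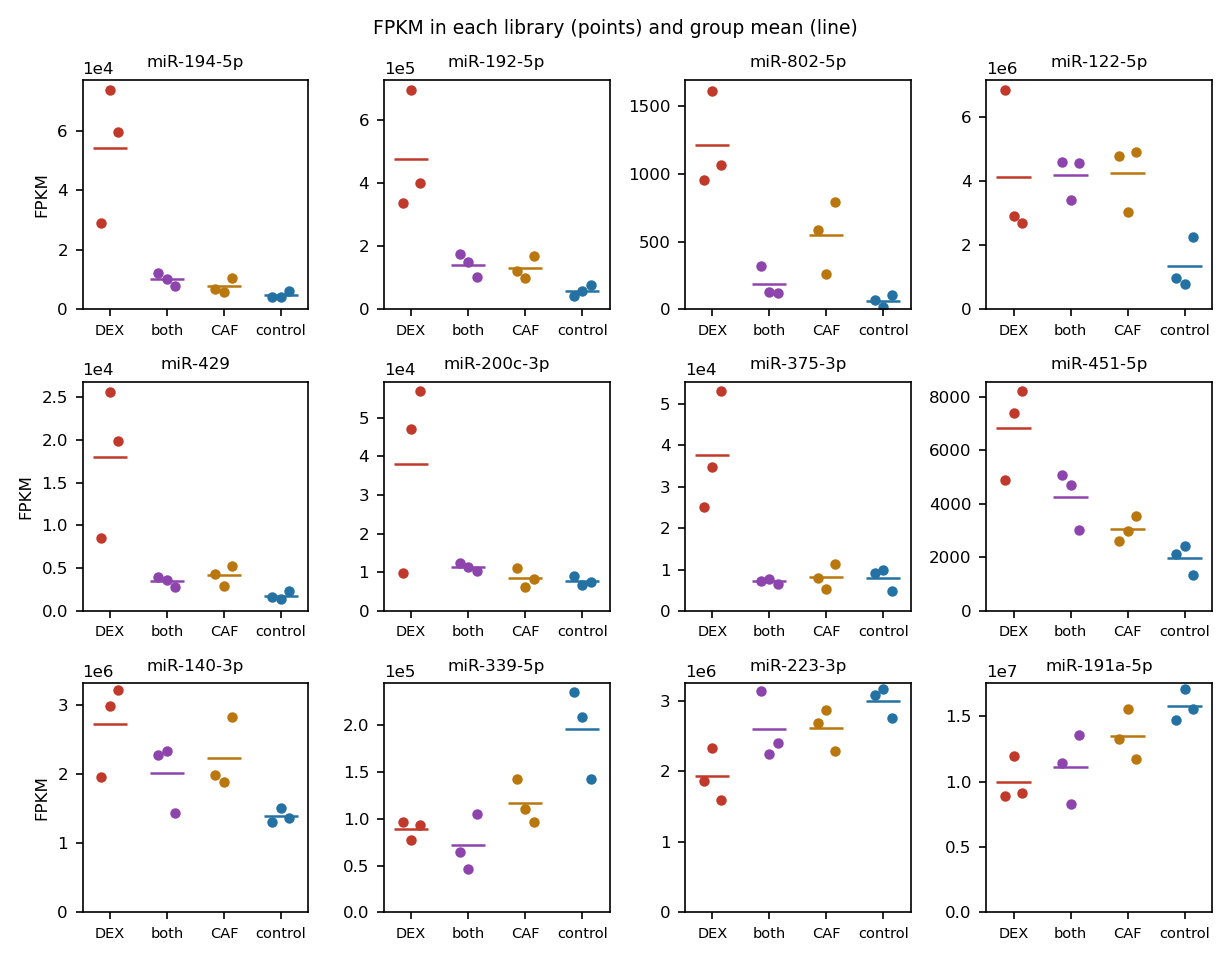
FPKM of 12 microRNAs in each library (points) with the group mean (line), on linear axes that start at 0, for dextromethorphan (DEX), both drugs, caffeine (CAF) and control, 3 libraries each. For miR-194-5p, miR-192-5p, miR-429 and miR-375-3p the dextromethorphan points lie above every other library, whereas miR-122-5p is about as high after caffeine or both drugs, and miR-339-5p is highest in the controls.

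miR-451-5p and miR-144 are processed from 1 cluster during red-cell maturation. miR-451-5p had 4871, 7378 and 8215 FPKM after dextromethorphan, against 2138, 2415 and 1324 FPKM in controls (3.45-fold, 2.12 to 5.64, adjusted p = 0.00226). miR-451-3p was 4.45-fold higher (adjusted p = 0.0136) and miR-144-5p 3.11-fold higher (adjusted p = 0.0352), while miR-144-3p did not pass (1.90 ± 0.72, adjusted p = 0.0818). The groups were apart for miR-451-5p, with DEX1 the lowest of the dextromethorphan libraries. miR-451-3p was lost without DEX3 (adjusted p up to 0.0546). miR-144-5p was lost without DEX2, DEX3, ctrl1 or ctrl3 (adjusted p up to 0.132).

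On the whole red-cell list 4 of 12 tested names rose and none fell, beside 11.5% higher among all tested. The list median of 0.43 lay near that of all tested. The fourth was miR-182, which is not specific to red cells. The list took 12.9% to 15.4% of reads in the dextromethorphan libraries and 12.4% to 14.7% in controls, and none of its names was at 0 in all libraries. miR-486, a further red-cell marker, was not analysed here. Most of that was miR-16-5p, the second most abundant microRNA of the table, with 4.52e+06, 5.58e+06 and 5.43e+06 FPKM after dextromethorphan and 4.50e+06, 4.34e+06 and 4.32e+06 FPKM in controls. Its log2 fold change was 0.23 ± 0.20 (adjusted p = 0.412) and became -0.18 with median-of-ratios scaling. miR-92a-3p, another abundant red-cell microRNA, had -0.82 ± 0.29 (adjusted p = 0.0608).

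With the ratio of miR-451-5p to miR-23a-3p as a covariate, a ratio that contains 1 of the rises itself, only 1 microRNA passed against control, miR-122-5p, with a log2 fold change of 3.21 ± 0.61. The ratio itself did not overlap between the groups. In that fit the 11 steadiest rises named below kept positive log2 fold changes of 0.51 to 3.24, with a median of 1.95, and none passed. The largest was miR-802-5p, and miR-194-5p had 2.06 ± 0.59 and miR-192-5p 1.95 ± 0.57.

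For most microRNAs of vessel walls the 2 groups did not overlap. Of 18 names on a list of endothelium and smooth muscle, 3 rose (miR-139-5p, miR-199a-3p and miR-222-3p), none fell, beside 11.5% higher among all tested, and the median log2 fold change was 1.14. In 14 of the 18 every dextromethorphan library exceeded every control, beside 26% of all tested. The list took 3.82% to 10.7% of reads in the dextromethorphan libraries and 2.51% to 2.99% in controls. miR-126a-3p, the main endothelial microRNA, had 163669, 185071 and 163402 FPKM after dextromethorphan and 51820.5, 45219 and 112725 FPKM in controls (1.41 ± 0.48, adjusted p = 0.0597). miR-145-5p of smooth muscle had 1.54 ± 0.54 (adjusted p = 0.0608), and miR-143-3p 1.13 ± 0.56 (adjusted p = 0.169). The rises were 1.63 for miR-139-5p, 1.17 for miR-199a-3p and 1.16 for miR-222-3p on the log2 scale, with adjusted p = 0.0385, 0.0352 and 0.0446 in that order. miR-139-5p was lost without DEX3, ctrl1, ctrl3 or CAF3 (adjusted p up to 0.135). miR-199a-3p was lost without DEX1, DEX3, ctrl1 or ctrl3 (adjusted p up to 0.132). miR-222-3p was lost without DEX2, DEX3, ctrl1, ctrl3, ctrl5, CAF3, CAF4, CAF5 or CAFDEX2 (adjusted p up to 0.132). None of the 3 passed with median-of-ratios scaling.

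Of 5 tested names of striated muscle, miR-133a-3p rose (1.43 ± 0.44, adjusted p = 0.047), beside 11.5% higher among all tested. It had 1319, 2323 and 2063 FPKM after dextromethorphan, against 536, 577 and 941 FPKM in controls, without overlap. miR-133a-3p was lost without DEX2, DEX3, ctrl1, ctrl3, CAF4, CAF5 or CAFDEX2 (adjusted p up to 0.163). miR-1-3p (1.43 ± 0.57, adjusted p = 0.0919) and miR-206-3p (1.35 ± 0.57, adjusted p = 0.114) did not pass. The heart-rich miR-208b-3p was at 0 in all 12 libraries.

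Platelet and leukocyte lists held calls at about the share of all tested, where 11.5% were higher. On the platelet list 1 of 11 rose, miR-199a-3p, and the list took 27.4% to 35.0% of reads in the dextromethorphan libraries and 43.0% to 48.5% in controls. It includes miR-191a-5p. miR-223-3p, made by myeloid cells and platelets, had 1.86e+06, 2.33e+06 and 1.59e+06 FPKM after dextromethorphan, against 3.07e+06, 3.17e+06 and 2.76e+06 FPKM in controls. The groups did not overlap, but the log2 fold change of -0.66 ± 0.22 missed the threshold as deposited (adjusted p = 0.0572) and passed with median-of-ratios scaling (-1.07, adjusted p = 0.0171). miR-223-5p had -0.77 ± 0.25 (adjusted p = 0.0562). On the list of lymphocyte and myeloid microRNAs 2 of 16 rose, miR-181a-5p (1.05 ± 0.30, adjusted p = 0.0352) and miR-29b-3p (0.94 ± 0.29, adjusted p = 0.0478). miR-181a-5p was lost without DEX2, DEX3, ctrl1, ctrl3, ctrl5 or CAFDEX2 (adjusted p up to 0.154). miR-29b-3p was lost without DEX2, DEX3, ctrl1, ctrl3, ctrl5, CAF3, CAF4, CAF5 or CAFDEX2 (adjusted p up to 0.175). The lymphocyte microRNA miR-150-5p had 0.89 ± 0.31 (adjusted p = 0.0608).

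The 2 falls were miR-339-5p and miR-383-5p. miR-339-5p had 96902, 77338 and 93595 FPKM after dextromethorphan, against 235884, 209278 and 142921 FPKM in controls, a log2 fold change of -1.11 ± 0.30 (adjusted p = 0.0338). miR-383-5p, expressed in brain and testis, had 2445, 3006 and 3301 FPKM, against 9391, 5175 and 6715 FPKM in controls, a log2 fold change of -1.24 ± 0.34 (adjusted p = 0.0352). In both, the highest dextromethorphan library lay below the lowest control. miR-339-5p was lost without DEX2, DEX3, ctrl1 or ctrl3 (adjusted p up to 0.124). miR-383-5p was lost without DEX2, DEX3, ctrl1 or ctrl3 (adjusted p up to 0.135). The next smallest p-values among lower values did not pass: miR-128-1-5p (-1.55 ± 0.50, adjusted p = 0.0545), with 2, 1 and 2 reads after dextromethorphan and 26, 37 and 8 in controls, and the 2 arms of miR-223.

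Under quantile normalization and median-of-ratios scaling alike, 15 microRNAs passed as lower. The 10 with the smallest p-values among those lower with median-of-ratios scaling were both falls, both arms of miR-223, miR-18a-5p (-1.37, adjusted p = 0.015), miR-92a-3p (-1.23, adjusted p = 0.0186), let-7d-3p (-0.90, adjusted p = 0.015), miR-30c-5p (-0.97, adjusted p = 0.0171), miR-186-5p (-0.94, adjusted p = 0.0202) and miR-3559-5p (-1.15, adjusted p = 0.0186). miR-18a-5p and miR-92a-3p belong to the clusters related to miR-17, which are active in dividing and blood-forming cells. Of 19 tested members of these clusters none passed as deposited (median -0.10), beside 12% of all tested. With median-of-ratios scaling 5 were lower (median -0.51), beside 5.19% of all tested. As deposited, the 10 named microRNAs also had negative log2 fold changes, but only both falls passed.

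Among the 10 most abundant microRNAs, miR-122-5p and miR-140-3p passed, both as higher. miR-140-3p, made mainly in cartilage, had 1.97e+06, 2.99e+06 and 3.22e+06 FPKM after dextromethorphan, against 1.30e+06, 1.52e+06 and 1.37e+06 FPKM in controls (1.92-fold, 1.31 to 2.81, adjusted p = 0.0352). miR-140-3p was lost without DEX2, DEX3, ctrl1, ctrl3 or ctrl5 (adjusted p up to 0.122). It passed with quantile normalization as well but not with median-of-ratios scaling (adjusted p = 0.14). miR-191a-5p had 8.92e+06, 1.19e+07 and 9.12e+06 FPKM after dextromethorphan, against 1.47e+07, 1.71e+07 and 1.55e+07 FPKM in controls (-0.67 ± 0.23, adjusted p = 0.0597). These groups did not overlap, and the difference missed the threshold as deposited and passed with median-of-ratios scaling (-1.08, adjusted p = 0.0266). Quantile normalization gives the top rank the same value in every library, so it cannot show a difference in this microRNA. Of the others in the first 10 not yet given, miR-128-3p had -0.74 ± 0.27 (adjusted p = 0.0734) and miR-30d-5p -0.21 ± 0.25 (adjusted p = 0.576). Of 11 microRNAs often used as serum normalisers none passed, beside 12% of all tested. The median of the 11 was -0.13 as deposited and -0.54 with median-of-ratios scaling.

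Brain, where the drug acts, and the regulation of drug metabolism were covered by a list each, and over all tested microRNAs 12% passed in either direction. Of 15 tested brain microRNAs, miR-149-5p rose (0.93 ± 0.27, adjusted p = 0.037) and miR-383-5p fell, with a median of 0.10. Log2 fold changes on this list ran from -2.22 to 1.45. In 2 of the 15 every dextromethorphan library lay above every control and in 3 below, beside 26% and 7.1% of all tested. Among those not passing, miR-330-3p had -1.02 (adjusted p = 0.169). The neuronal miR-124-3p, its other arm miR-124-5p, and miR-129-1-3p were at 0 in all 12 libraries. miR-9a-5p, made in neural tissue, had 339, 197 and 429 FPKM after dextromethorphan and 124, 49.7 and 233 FPKM in controls (1.13 ± 0.56, adjusted p = 0.169). Of 13 microRNAs reported to regulate drug-metabolising enzymes or their receptors, miR-27b-3p (1.14 ± 0.29, adjusted p = 0.0247), miR-378a-3p (1.03 ± 0.29, adjusted p = 0.0352) and miR-378a-5p (1.07 ± 0.32, adjusted p = 0.0442) rose and none fell. None of these 3 passed under either other scaling. The median of the 13 was 0.32 as deposited and -0.08 with median-of-ratios scaling. This list took 4.68% to 5.58% of reads in the dextromethorphan libraries and 6.12% to 8.17% in controls. miR-149-5p was lost without DEX3, ctrl1, ctrl3, ctrl5, CAF5 or CAFDEX2 (adjusted p up to 0.124). miR-27b-3p was lost without DEX2, DEX3, ctrl1 or ctrl3 (adjusted p up to 0.124). miR-378a-3p was lost without DEX2, DEX3, ctrl3 or ctrl5 (adjusted p up to 0.126). miR-378a-5p was lost without DEX2, DEX3, ctrl1, ctrl3, ctrl5, CAF3, CAF4, CAF5 or CAFDEX2 (adjusted p up to 0.175).

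The remaining 9 rises stood on none of the lists. miR-139-3p, the other arm of the endothelial miR-139-5p, had 2918, 5278 and 9903 FPKM after dextromethorphan, against 1058, 1143 and 3118 FPKM in controls (3.37-fold, 1.68 to 6.74, adjusted p = 0.0338). DEX1 lay just below ctrl5, so the groups overlapped. miR-139-3p was lost without DEX2, DEX3, ctrl1 or ctrl3 (adjusted p up to 0.126). The other 8 were miR-10a-3p, miR-23b-5p, miR-378b, miR-224-5p, miR-193a-5p, miR-322-5p, miR-101a-3p and miR-532-3p, with log2 fold changes from 0.87 for miR-532-3p to 1.502 for miR-23b-5p. Each of the 8 was lost without DEX3 and without ctrl3, and none passed under either other scaling.

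None of 14 tested microRNAs of stress responses passed, with a median of 0.57, where 12% of all tested passed in either direction. miR-34a-5p, a target of p53, had 0.23 ± 0.27 (adjusted p = 0.56), and miR-21-5p, raised in many kinds of injury, had 0.55 ± 0.27 (adjusted p = 0.169). miR-146a-5p, the most abundant of these, had 0.68 ± 0.33 (adjusted p = 0.163). Likewise none of 24 members of the imprinted Dlk1-Dio3 cluster (median 0.56), none of 9 of the let-7 family (0.15) and none of 9 of the miR-30 family (-0.16) passed. The most abundant Dlk1-Dio3 member, miR-382-5p, had 0.88 ± 0.43 (adjusted p = 0.169). Within let-7, let-7b-5p had 0.06 and let-7c-5p 0.10 as deposited, against -0.36 and -0.31 with median-of-ratios scaling, so no direction is given for them.

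**Figure D3:**
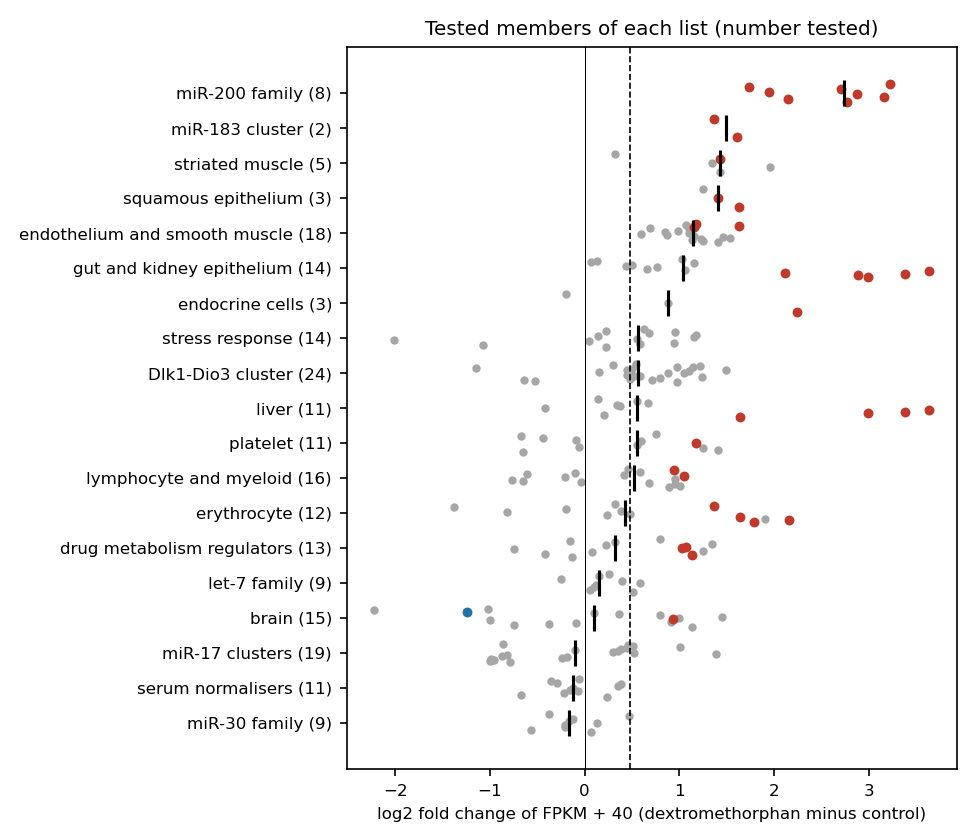
Log2 fold change (dextromethorphan minus control) of every tested member of 19 lists, with the list median as a black bar, zero as a solid line and the median of all tested microRNAs, 0.47, as a dashed line. Red points rose and blue points fell at an adjusted p under 0.05; all 8 tested members of the miR-200 family are red, whereas the let-7, miR-17 and miR-30 lists hold no red or blue point.

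The place of the passing microRNAs in the genome was read from the coordinates in the deposited table, in build rn6. Described here are the groups of neighbours, within 10 kb on the same strand, in which arms of at least 2 hairpins rose. On chromosome 1, plus strand, from 221634800 to 221635058, all 4 arms of miR-194 and miR-192 rose. miR-194-5p was also listed on chromosome 13 at 103250590 to 103250611, and the 2 copies were summed, so the loci cannot be told apart. On chromosome 5, minus strand, from 173488342 to 173490218, all 5 tested arms of miR-429, miR-200a and miR-200b rose. On chromosome 4, minus strand, from 157236361 to 157236810, all 3 tested arms of miR-141 and miR-200c rose. On chromosome 10, minus strand, from 65291210 to 65291435, 3 of 4 arms of miR-144 and miR-451 rose. miR-182 and miR-183, on chromosome 4 from 57459776 to 57463652, both rose. On chromosome 17, plus strand, from 823242 to 824032, miR-23b-5p and miR-27b-3p rose and miR-23b-3p and miR-24-3p did not pass. Members of a cluster can share a primary transcript and are not independent.

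Both arms of a hairpin were tested for 102 hairpins. In 8 hairpins both arms rose (miR-139, miR-141, miR-192, miR-194, miR-200a, miR-200b, miR-378a and miR-451), in 12 only 1 arm passed, and in 82 neither did. The signs matched in 84 of the 102, and the median absolute difference between arms was 0.43 on the log2 scale. Over all 366 tested microRNAs 12% passed in either direction, and 247 log2 fold changes lay above 0 and 119 below. The signs of unrelated pairs would therefore often match too. Among hairpins with a passing arm the arms lay furthest apart for miR-802, at 3.64 for the 5p and 1.05 for the 3p arm. Next came miR-29b, with -0.79 for the 5p and 0.94 for the passing 3p arm, and miR-122, with 1.64 for the passing 5p and 0.21 for the 3p arm. miR-29b-3p was summed over loci on chromosomes 1, 4 and 13, and the locus on chromosome 4 has another 5p arm, miR-29b-1-5p. miR-29b-5p had a mean of only 104 FPKM over the 12 libraries and did not pass (adjusted p = 0.453), so opposite directions are not shown.

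**Figure D4:**
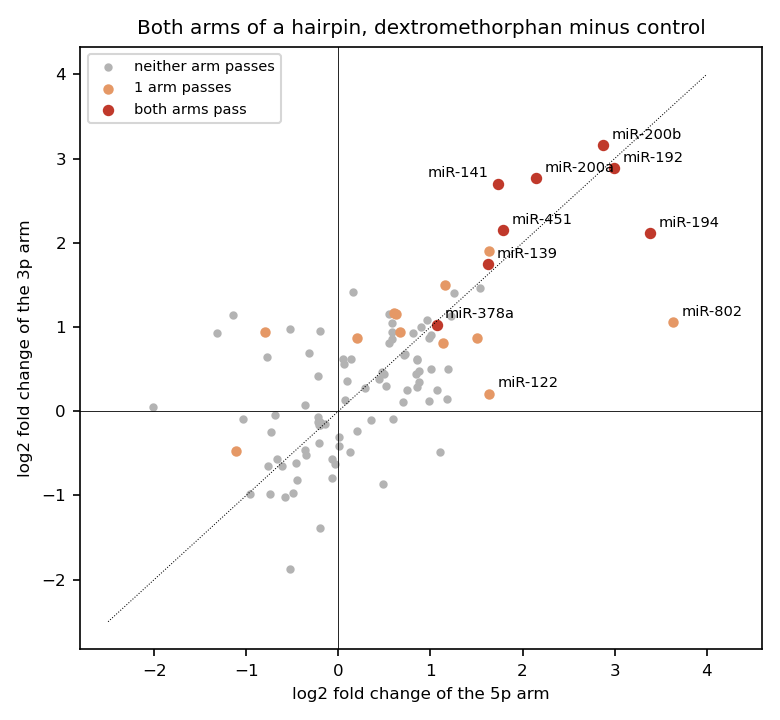
Log2 fold change (dextromethorphan minus control) of the 5p arm on the horizontal axis and of the 3p arm on the vertical axis, for 102 hairpins with both arms tested; the dotted line marks equal change. The 8 hairpins with both arms passing lie in the upper right, and miR-802 and miR-122 lie below the line, with 3p arms that did not pass.

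MicroRNAs with a common seed were also set side by side. Among those with a matched sequence there were 39 groups of at least 2 tested microRNAs with the same seed, and in 1 of them, miR-200a-5p with miR-200b-5p, all members passed. The groups leave out miR-200a-3p, miR-200b-3p and miR-429, which had no matched sequence, so groups of the 3p arms of the miR-200 family were not formed. In 6 others 1 member passed: for instance miR-181a-5p was the only 1 of 4 with its seed, miR-322-5p the only 1 of 5 with the seed AGCAGCA, which includes miR-16-5p, and miR-29b-3p the only 1 of 3.

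How firmly each rise held was read from 12 refits that each left out 1 library. Of the 42 rises 11 passed in every refit: miR-192-5p, miR-192-3p, miR-194-5p, miR-802-5p, miR-141-3p, miR-200a-3p, miR-200b-3p, miR-200b-5p, miR-429, miR-375-3p and miR-451-5p. These 11 also passed under both other scalings and after every library was thinned to the depth of the shallowest. They took 0.898%, 1.91% and 1.28% of reads after dextromethorphan, against 0.135%, 0.171% and 0.211% in controls. The 11 were selected as higher in these same libraries, so the larger share is no further support for them. The other 31 rises, with folds from 1.83 to 4.45, each failed in at least 1 refit. Without DEX3 30 of the 42 were lost, without ctrl3 29, without ctrl1 26 and without DEX2 24, and the 2 falls were lost in the same 4 refits. Of the 31, 4 passed with median-of-ratios scaling, 2 with quantile normalization and 14 after thinning.

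With DEX1 as the only dextromethorphan library, assumed to vary like the other groups, 8 of the 42 rises passed. They were miR-802-5p, miR-194-5p, miR-192-5p, miR-192-3p, miR-429, miR-200b-3p, miR-122-5p and miR-199a-3p. In that fit the log2 fold change was 2.60 for miR-194-5p and, for miR-192-5p, 2.56, where all libraries gave 3.39 and 2.99. For miR-429 it was 2.29 and for miR-200b-3p 2.06, where all libraries gave 3.23 and 3.16. miR-122-5p was larger with DEX1 alone, at 2.50 against 1.64 with all 3.

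**Figure D5:**
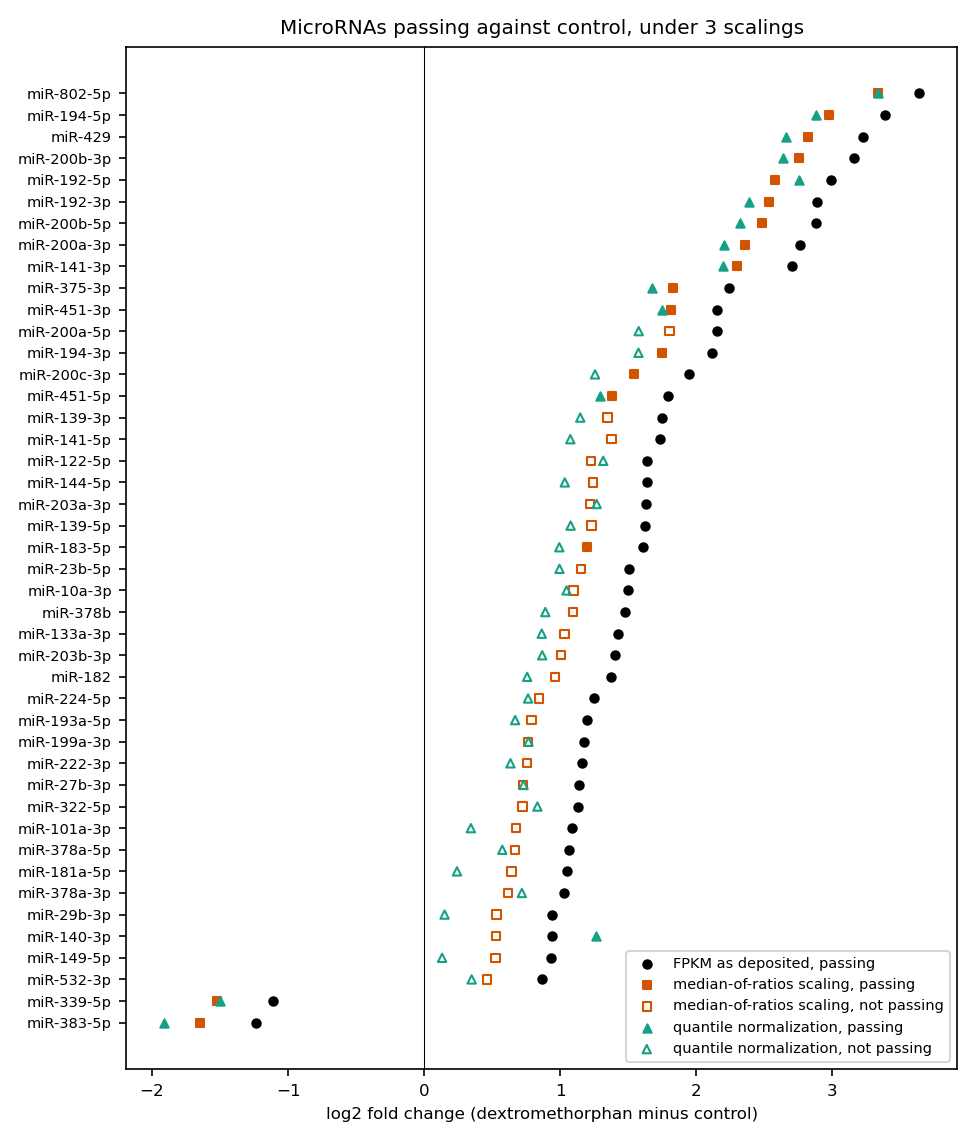
Log2 fold change (dextromethorphan minus control) of the 44 passing microRNAs in FPKM as deposited (black), after median-of-ratios scaling (orange) and after quantile normalization (green), with filled symbols where the adjusted p is under 0.05. All symbols of a microRNA lie on 1 side of zero; filled symbols in all 3 scalings are found from miR-802-5p to miR-375-3p, for miR-451-3p and miR-451-5p, and for both falls.

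Dextromethorphan was also set against caffeine, the other drug given alone, in the same fit, where the controls entered only the estimate of the spread. Here 9 of 366 were higher after dextromethorphan (2.46%) and 0 lower (0%) in limma, adjusted over 366. An unadjusted p under 0.05 was found for 55, and the median log2 fold change was 0.12. All 9 were also higher than control: miR-194-5p, miR-192-5p, miR-375-3p, miR-429, miR-200a-3p, miR-200a-5p, miR-200b-3p, miR-200b-5p and miR-141-3p. Without DEX2, without DEX3 or without CAF4 3 microRNAs passed, and without DEX2 and DEX3 together 0. miR-194-5p had 6970.1, 5951 and 10700.4 FPKM after caffeine, and its log2 fold change against caffeine was 2.72 ± 0.35 (adjusted p = 0.000353). miR-375-3p had 7856, 5402 and 11417 FPKM after caffeine, close to its controls, with 2.19 ± 0.36 (adjusted p = 0.00327). miR-192-5p had 122309, 100089 and 168269 FPKM after caffeine, with 1.84 ± 0.32 (adjusted p = 0.00475). miR-122-5p, with 4.79e+06, 3.05e+06 and 4.89e+06 FPKM after caffeine, did not pass against it (-0.14 ± 0.39, adjusted p = 0.915). The contrasts against caffeine and against control share the dextromethorphan libraries, so they are not independent.

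After both drugs, miR-194-5p had 12112, 10071 and 8028 FPKM, miR-192-5p 174566, 149260.1 and 102331 FPKM and miR-429 3979, 3657 and 2741 FPKM. These lie below every library of dextromethorphan alone. The 11 steadiest rises together took 0.451%, 0.391% and 0.277% of reads after both drugs and 0.334%, 0.266% and 0.449% after caffeine, between the values given above for dextromethorphan alone and for control. No test was made of dextromethorphan alone against both drugs here.

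The 113 members with a mean under 80 FPKM were not tested. At the depth of the dextromethorphan libraries a single read already exceeded the pseudocount, and the largest mean among the 113 was 2.33 reads per library. In 7 of them every dextromethorphan library exceeded every control and in 5 the reverse held, but none had 3 reads or more in each dextromethorphan library. 28 of the 113 were at 0 in all dextromethorphan libraries and 12 in all controls, and no difference is read from these at this depth. A further 70 names were above 0 in 1 or 2 libraries only, and 203 were at 0 in all 12.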

How the data were processed

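Small RNA was sequenced from rat serum, 3 libraries in each of 4 groups. Per the labels' protocols, the miRNeasy Micro Kit was used for RNA isolation and the QIAseq miRNA Library Kit for library preparation. Its primers carry unique molecular indices, and whether duplicates were collapsed by them is not stated in the labels. The authors deposited FPKM for each mature microRNA. The submitters' processing notes list DESeq2 1.20.0, Subread 2.0.1, featureCounts, STAR 2.7.10a, cutadapt 3.7 and build rn6, without their roles. FPKM times length summed to the same constant in every library, so a value is a share of the microRNA reads. Values were multiples of 0.01 read, as arises when reads that match several places are divided, and 65.4% to 75.0% of them were whole within a tolerance of 0.0001 of a step; this gave the reads per library. Columns gave only the group, since their numbers did not match those in the sample titles.

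The 836 rows were summed to 752 mature names (69 names at several loci, 153 rows). Names above 0 in 3 or more libraries whose mean was 80 FPKM or more entered a fit by limma 3.58.1 (R 4.3.3) on log2(FPKM + 40), with a mean-variance trend, in a model of 4 groups over 12 libraries; 40 is the 10th percentile of nonzero values in a library (median of 12 libraries, rounded). Fold changes on this scale understate those of low values. Adjusted p-values are limma's, two-sided, with Benjamini-Hochberg adjustment over 366 names and a threshold of 0.05; errors of log2 values are SE and intervals cover 95%. Library quantities were compared by exact permutation. Nothing says that each library is a separate rat, so p-values only measure how these libraries vary, which may be technical. The fit was tested on simulated data.

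Members, lists and tests were chosen with earlier results of these data known, and no list is independent evidence. Named microRNAs are the 10 largest rises and falls among passing ones above the median level (with the next smallest p-values up to 5 where fewer passed), the 10 most abundant, the passing members of each list or its most abundant one, those passing in 3 scalings, the 10 smallest p-values among those lower with median-of-ratios scaling, and the other arms and cluster neighbours of these; others were chosen after their values were seen.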

Additional observations from a re-analysis of the deposited data

How the results depend on the processing

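Reads per library limit precision: 7 of the 42 rises had under 10 reads on average in controls (miR-141-5p, miR-192-3p, miR-194-3p, miR-200a-5p, miR-23b-5p, miR-451-3p and miR-802-5p). No paired analysis was possible because the column numbers do not match the replicate numbers of the sample titles. Against control, 44 microRNAs passed (42 higher, 2 lower; 118 at an unadjusted p under 0.05). The count was 28 when rescaled without miR-191a-5p (16 higher, 12 lower), 28 when thinned to the shallowest library, 25 with the compared groups only, 18 without a mean-variance trend, 18 without DEX2 and DEX3 together, and 1 with the miR-451-5p to miR-23a-3p ratio as a covariate (24 at an unadjusted p under 0.05). Leaving out 1 library gave 12 (without DEX3) to 74 (without DEX1); it was 13 without ctrl3, 16 without ctrl1, 22 without DEX2 and 67 without CAFDEX3. It stayed within 1.5 times under other pseudocounts (42 and 45), other filters (33 and 49), voom (37), rows tested singly (45), and the 2 scalings given above, whose split between higher and lower differed. Why the counts moved was not tested. Against caffeine, 9 passed; the count was 3 with the compared groups only, 0 with the ratio as a covariate (24 at an unadjusted p under 0.05) and 0 without DEX2 and DEX3 (31 at an unadjusted p under 0.05), and leaving out 1 library gave 3 (without DEX2, DEX3 or CAF4) to 27 (without DEX1), with 5 without CAF5.

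Some log2 fold changes against control changed sign, and the cause was not tested. That of miR-16-5p was -0.18 with median-of-ratios scaling, -0.16 with quantile normalization, -0.040 without miR-191a-5p and -0.19 with the covariate. That of let-7c-5p was -0.31 with median-of-ratios scaling, -0.17 without miR-191a-5p, -0.041 without DEX2 and DEX3, and -0.18 to 0.31 over fits leaving out 1 library. That of let-7b-5p was -0.36 with median-of-ratios scaling, -0.053 with quantile normalization, -0.22 without miR-191a-5p, and -0.14 to 0.25 leaving out 1 library. That of miR-30d-5p was 0.30 with the covariate, 0.11 without DEX2 and DEX3, and -0.40 to 0.013 leaving out 1 library. With the covariate it was -0.15 for miR-140-3p, -0.085 for miR-182, -0.018 for miR-144-5p and -0.029 for miR-146a-5p.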
